A study of Mus musculus with 13 samples.

Results

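The genes described here are those transcribed from the mitochondrial genome together with the nuclear genes of respiratory complexes II and IV, in muscles of *mdm* mice. They were chosen by symbol, as all mouse genes whose name begins with mt-, follows Cox4 to Cox8 with a letter, or is Sdha, Sdhb, Sdhc or Sdhd. Of the mouse annotation, 60 genes met this rule, 49 of them had a value among the 17924 genes of the count tables, and 45 passed the filter on low values (3 or more libraries with a normalized count of 10 or more) among 17069 genes tested. The 49 genes were 13 mitochondrial protein genes, 2 mitochondrial rRNA genes, 14 of 22 mitochondrial tRNA genes, 15 of 18 nuclear genes of complex IV, the processed pseudogene Cox6c2 and the 4 genes of complex II. Cox6b2, Cox7b2, Cox8c and 8 tRNA genes had no value, and mt-Tl1, mt-Tq, mt-Tw and mt-Ta did not pass the filter.

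All 13 libraries came from *mdm* mice of the B6C3Fe a/a-Ttn mdm/J colony, in which an inserted repeat element leads to skipped exons and a deletion in the N2A region of titin, the giant spring protein of the sarcomere. There were 5 libraries of extensor digitorum longus (EDL, mice of 38 to 42 days), 5 of psoas (29 to 42 days) and 3 of soleus (33 to 38 days), each of whole muscle with no treatment named. Sex was given for EDL and psoas replicates 2 (male) and 3 (female) and soleus replicates 1 and 2 (male), and for no other library. EDL is a fast muscle of the lower leg, psoas a fast muscle of the hip and soleus a slow postural muscle. The mutation is carried by every group and wild-type muscle is not analysed here. Each difference below is one between *mdm* muscles. An effect of the mutation that differs by muscle cannot be told apart from a difference that the muscles have without it. Total counts ran from 9114176 to 48835209 per library. In whole-muscle RNA, fewer cells of a type and less RNA per cell cannot be told apart.

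Complex IV (cytochrome c oxidase) passes electrons from cytochrome c to oxygen. Its catalytic core is made from the mitochondrial genes mt-Co1, mt-Co2 and mt-Co3, while the surrounding subunits are encoded in the nucleus and imported, so that a working enzyme needs transcripts from both genomes. Complex II (succinate dehydrogenase) joins the citric acid cycle to the respiratory chain and is wholly nuclear. The mitochondrial genome is transcribed from both strands as long precursors, and the tRNAs that lie between the protein genes are cut out to release the mRNAs. Several complex IV subunits exist as pairs of genes, of which one (Cox6a2, Cox7a1, Cox8b) is a form of heart and skeletal muscle and the other (Cox6a1, Cox7a2, Cox8a) is made in most tissues.

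Per length of exon, the core subunits were far above the nuclear ones in every muscle. The level of mt-Co1 was 20781 ± 3401 RPKM (counts scaled to library size and to exon length in kilobases, SD, n = 5) in EDL, 14909 ± 3138 in psoas (n = 5) and 23858 ± 4954 in soleus (n = 3). That of mt-Co3 was 19973 ± 2088, 14349 ± 5183 and 20162 ± 5068 RPKM in the same order, and mt-Co2 was the lowest of the core genes with 7879 ± 3025, 5763 ± 2009 and 8944 ± 3940.2 RPKM. Among the nuclear genes of complex IV, Cox8b had the highest mean level in each of the 3 muscles, with 677 ± 182, 349 ± 166 and 601 ± 222 RPKM, and Cox4i2, a form of subunit 4 known from lung, had the lowest. In complex II, Sdhd, a membrane anchor, was highest and Sdhc, the other anchor, lowest per length in all 3 muscles. The rRNA gene mt-Rnr2 had the highest level of any member, 44342 ± 17519 RPKM in EDL. Whether the library kit removed mitochondrial rRNA is not given in the sources used here, so the 2 rRNA genes are not read as levels in the tissue.

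The share of all counts that lay on the 13 mitochondrial protein genes was 6.8 ± 1.01% in EDL (SD, n = 5), 5.06 ± 1.3% in psoas (n = 5) and 7.37 ± 1.65% in soleus (n = 3). In psoas replicates 1 to 5 it was 6.26, 4.11, 4.22, 4.0 and 6.68%, of which replicates 1 and 5 lay within the EDL range of 5.97 to 8.39%. Soleus ran from 6.06 to 9.23%. The 3 core genes of complex IV made up 78.3 ± 4.64%, 75.9 ± 2.12% and 79.9 ± 5.99% of these mitochondrial mRNA counts in EDL, psoas and soleus. The 15 nuclear genes of complex IV together held 0.313 ± 0.0503%, 0.216 ± 0.0548% and 0.299 ± 0.0771% of all counts, and the 4 genes of complex II 0.117 ± 0.0271%, 0.0826 ± 0.0269% and 0.0995 ± 0.00905%.

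The balance of the 2 genomes within complex IV was compared as the mean log2 CPM (counts scaled to library size, prior count 2) of the 3 core genes minus that of the 15 nuclear genes. This log2 difference was 7.01 ± 0.44 in EDL, 6.88 ± 0.61 in psoas and 7.03 ± 0.55 in soleus. The ranges overlapped among all 3 muscles: EDL libraries lay between 6.41 and 7.47, psoas between 6.10 and 7.82 and soleus between 6.44 and 7.53. The means of the 3 muscles lay closer together than the libraries of 1 muscle. Means of several libraries vary less than single ones, so this does not show that the balance was kept. Cox4i2, counted 0 to 20 times per library, entered the mean with the weight of any other subunit. Both sets of genes were lower in psoas than in EDL, as described next. Psoas replicate 1, from the youngest mouse (29 days), had the highest balance of all libraries, and psoas replicate 4 the lowest.

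**Figure D1:**
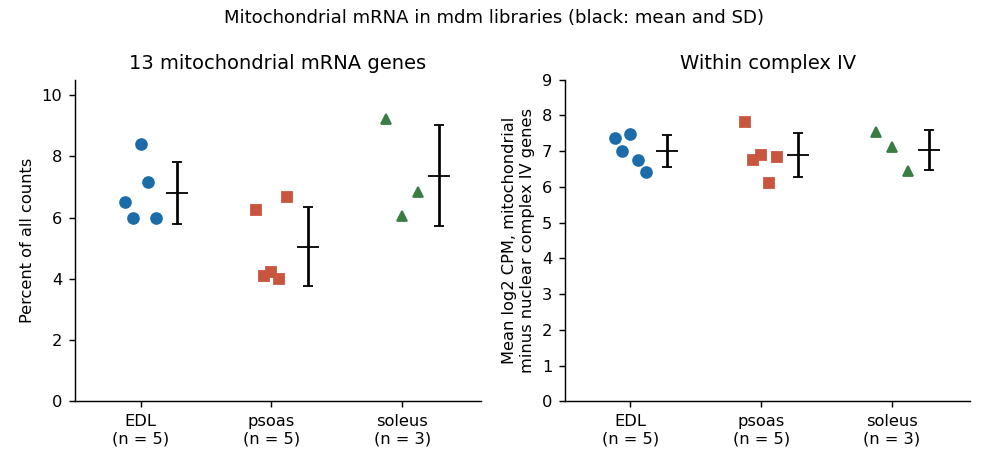
Share of all counts on the 13 mitochondrial protein genes (left, percent, axis from 0) and mean log2 CPM of mt-Co1, mt-Co2 and mt-Co3 minus that of 15 nuclear complex IV genes (right), each symbol 1 library, black marks the mean and SD of the muscle. The psoas mean share of 5.06% lies below that of EDL at 6.8%, while the complex IV differences of the 3 muscles centre between 6.88 and 7.03.

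In *mdm* psoas against *mdm* EDL, 41 of the 45 members tested had a log2 fold change below 0, and the median over the members was -0.96, beside a median of 0.021 over all 17069 genes tested. By group, the median was -0.76 for the 13 mitochondrial mRNA genes, -1.38 for the 10 tRNA genes tested, -1.03 for nuclear complex IV and -0.93 for complex II. The muscles were compared with edgeR's quasi-likelihood test, and a gene was called where its Benjamini-Hochberg adjusted p was under 0.01 and its log2 fold change beyond 1 in either direction. Of the members, 4 were called lower (Cox6a2, Cox6c, mt-Tc and mt-Tn) and 0 higher, where 2.5% of all genes tested were called lower and 2.43% higher. At an adjusted p under 0.05 alone, 15 members were lower, 9 of them nuclear genes of complex IV, beside 9.06% of all genes. In 14 members every psoas library lay below every EDL library, beside 6.56% of all genes. Counted by group, these non-overlapping genes were 9 of 15 in nuclear complex IV, 2 of 4 in complex II, 2 of 10 among the tRNA genes and 1 of 13 (mt-Co1) among the mitochondrial mRNA genes.

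**Figure D2:**
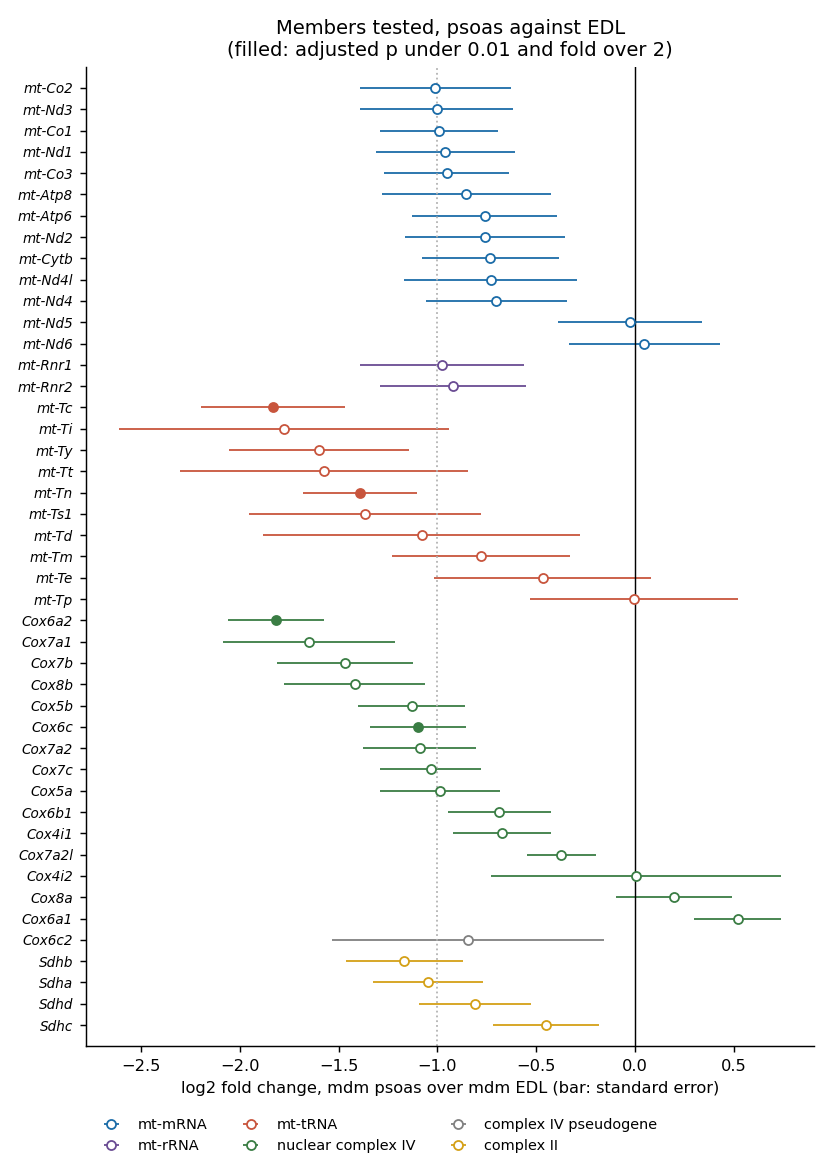
Log2 fold change of mdm psoas over mdm EDL (horizontal axis, bars are standard errors) for the 45 members tested, coloured by class and filled where called. Members lie mostly left of 0, with Cox6a1, Cox8a, Cox4i2 and mt-Nd6 right of it, and the filled points are mt-Tc, mt-Tn, Cox6a2 and Cox6c.

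The labels do not say whether same-numbered EDL and psoas libraries came from the same animal. Replicates 2 to 5 of these muscles match in age and in the condition code of their labels, and replicate 1 in neither. The study, wild type included, used fewer mice than libraries, so some animals gave more than 1 library. The test above treated the libraries as independent. With the replicate number as a block over all 13 libraries, the same comparison called 11 members lower, beside 3.25% of all genes. Those added were Cox5b, Cox7a1, Cox7a2, Cox7b, Cox7c and Cox8b of complex IV and Sdhb of complex II. None of the mitochondrial mRNA genes was among them: under the block the smallest adjusted p of that group was 0.0386 for mt-Co3, at a log2 fold change of -1.07. Scaling by total counts alone moved the median of all genes to 0.54, and nuclear complex IV then had a median of -0.53 and mitochondrial mRNA one of -0.28, both below that shift. The split of all calls, 415 higher and 426 lower, then became 2119 higher and 163 lower, Cox6a1 was called higher, and Cox6c and mt-Tn were no longer called.

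Among the nuclear subunits of complex IV, the muscle form Cox6a2 (chr7:128205435-128206387, reverse strand, GRCm38) showed the smallest p in psoas against EDL. Its normalized counts, the counts divided by the authors' size factor of the library, were 4379, 4882, 6084, 2566 and 4223 in EDL replicates 1 to 5, 1000.1, 885, 1474, 1500.0 and 1432 in psoas replicates 1 to 5 and 1944, 2402 and 2287 in soleus replicates 1 to 3. Every psoas library lay below every EDL library, and the soleus libraries lay between the psoas and the EDL values. The fold change from EDL to psoas was -1.82 ± 0.24 (log2, SE, adjusted p = 0.00102), and this call held in all 22 alternative settings. Its counterpart Cox6a1 (chr5:115345642-115348981, reverse strand) ran the other way, with 494, 430.0, 364, 534 and 314 in EDL replicates 1 to 5, 487, 657, 449.7, 552 and 920.1 in psoas replicates 1 to 5 and 1011, 668 and 861 in soleus replicates 1 to 3. The EDL and psoas ranges of Cox6a1 overlapped, and the test gave 0.52 ± 0.22 (log2, SE, adjusted p = 0.111). Within each library, the log2 ratio of Cox6a2 to Cox6a1 per length was 3.39 ± 0.69 in EDL, 1.10 ± 0.54 in psoas and 1.45 ± 0.45 in soleus, and the lowest EDL library (2.31) was above the highest of psoas (1.76) and of soleus (1.89). The muscle form was the more abundant of the pair in all 13 libraries.

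The pair of subunit 8 showed a like picture. Cox8b, its form in muscle (chr7:140898945-140900446, reverse strand), had normalized counts of 4239.5, 4472, 5487, 4054 and 6978 in EDL replicates 1 to 5, 844, 928, 1852, 2603 and 3221 in psoas replicates 1 to 5 and 2720.0, 2761 and 4835 in soleus replicates 1 to 3. All psoas libraries were below all EDL libraries, and the log2 fold change of -1.42 ± 0.36 (log2, SE, adjusted p = 0.015) fell short of the call, which it reached with the replicate block (-1.59, adjusted p = 0.00291). For Cox8a, the widely made form (chr19:7215153-7217616, reverse strand), the libraries gave 886, 635, 784, 1445 and 1443 in EDL replicates 1 to 5, 831, 951, 837, 1364 and 1971 in psoas replicates 1 to 5 and 1623, 1195 and 2032 in soleus replicates 1 to 3. These ranges overlapped and the test of psoas against EDL gave 0.20 ± 0.29 (log2, SE, adjusted p = 0.674). The log2 ratio of Cox8b to Cox8a per length was 3.11 ± 0.54 in EDL, 1.34 ± 0.54 in psoas and 1.85 ± 0.28 in soleus, with every EDL library above every psoas and soleus library.

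In the pair of subunit 7a, both forms were lower in psoas. The muscle form Cox7a1 (chr7:30184144-30186078, forward strand) had normalized counts of 2685, 3040.0, 4215, 2159 and 4746 in EDL replicates 1 to 5, 296, 547, 913, 1397 and 2231 in psoas replicates 1 to 5 and 1192, 1041 and 1826 in soleus replicates 1 to 3. Only psoas replicate 5 overlapped the EDL range, at 2231 against 2159 in EDL replicate 4. The widely made Cox7a2 (chr9:79755361-79759878, reverse strand) gave 3098, 3279.9, 4448, 3217 and 5035 in EDL replicates 1 to 5, 871, 1367, 1773, 2164 and 2796 in psoas replicates 1 to 5 and 2427, 2069 and 3495 in soleus replicates 1 to 3, without overlap of EDL and psoas. The fold changes from EDL to psoas were -1.65 ± 0.44 (log2, SE, adjusted p = 0.0193) for Cox7a1 and -1.09 ± 0.29 (log2, SE, adjusted p = 0.0186) for Cox7a2, neither called, and both were called with the replicate block, at adjusted p = 0.00399 and 0.00416. The log2 ratio of the muscle to the other form was 0.61 ± 0.21 in EDL, -0.14 ± 0.50 in psoas and -0.17 ± 0.045 in soleus. Here the psoas range, from -0.74 to 0.49, overlapped that of EDL, from 0.24 to 0.74.

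**Figure D3:**
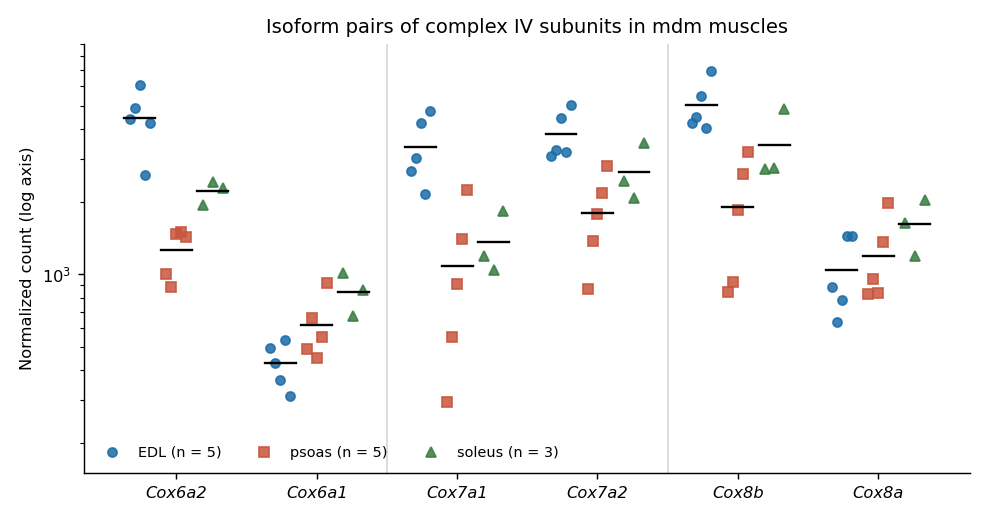
Normalized counts (log axis) of the muscle form and the widely made form of complex IV subunits 6a, 7a and 8, each symbol 1 library and each black line the mean of a muscle. The muscle forms Cox6a2 and Cox8b are lower in every psoas library than in every EDL library, whereas Cox6a1 and Cox8a overlap between these muscles.

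Subunit 4 was almost wholly of 1 form. Cox4i1, the common form, had normalized counts of 6252, 8416, 9480.4, 7623 and 10562 in EDL replicates 1 to 5, 2886, 4821, 5504, 6121 and 7235 in psoas replicates 1 to 5 and 7769, 5789.6 and 8882 in soleus replicates 1 to 3, with overlapping ranges and a log2 fold change from EDL to psoas of -0.67 ± 0.25 (log2, SE, adjusted p = 0.0721). Cox4i2 was counted 0 to 20 times per library and made up at most 0.221% of the 2 forms' counts, with 2.55, 10.2, 0, 16.3 and 2.71 in EDL replicates 1 to 5, 4.19, 10.7, 2.75, 9.55 and 5.8 in psoas replicates 1 to 5 and 6.21, 3.57 and 15.5 in soleus replicates 1 to 3. At these counts no difference of Cox4i2 between the muscles was detectable.

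Cox6c, a small subunit of the inner membrane (chr15:35925886-35938246, reverse strand), was the other nuclear gene called. Its normalized counts were 6838, 7746, 9484, 8682 and 7597 in EDL replicates 1 to 5, 3295, 2464, 3362, 3653 and 6092 in psoas replicates 1 to 5 and 5752, 4139.9 and 7104 in soleus replicates 1 to 3. Every psoas library was below every EDL library, and the log2 fold change was -1.10 ± 0.24 (log2, SE, adjusted p = 0.0091). This adjusted p stood close to the limit, and the call was lost in 12 of 22 alternative settings, 10 of them with 1 library left out. Cox6c2 on chromosome 12 is a processed copy that can share reads with it, and its counts of 29 to 554 per library make it uncertain. Of the remaining nuclear genes, Cox7b (-1.47, adjusted p = 0.011), Cox5b (-1.13, adjusted p = 0.0125), Cox7c (-1.03, adjusted p = 0.0142) and Cox5a (-0.99, adjusted p = 0.0361) had adjusted p-values under 0.05 and no overlap of the 2 muscles. Cox6b1 (-0.69, adjusted p = 0.0795) and Cox7a2l (-0.37, adjusted p = 0.15), the latter a factor that helps supercomplexes form, did not pass even that limit.

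The upstream sequences of these genes are shown because the forms of a pair differed in direction or size while sharing a function. RefSeq (GRCm38.p6) gave a start site for 16 of the 22 nuclear genes that met the rule, and the 250 bases before it were searched on both strands for an NRF1-type site (GCGCA and GCGC with any 1 base between them), an ETS-type site (CCGGAAG) and an E-box (CAGCTG). Capitals mark the matches, and no match overlapped another. Cox4i1, Cox4i2, Cox6a2, Cox6c, Cox8c and Sdhc had no entry.
Cox6a1, chr5:115348959-115349208, reverse strand: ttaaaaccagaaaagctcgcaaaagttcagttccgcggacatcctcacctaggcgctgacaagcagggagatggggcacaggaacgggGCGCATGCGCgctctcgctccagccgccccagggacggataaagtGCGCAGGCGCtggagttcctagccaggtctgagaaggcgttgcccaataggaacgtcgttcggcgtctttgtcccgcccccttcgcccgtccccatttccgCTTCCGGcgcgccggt
Cox8a, chr19:7217617-7217866, reverse strand: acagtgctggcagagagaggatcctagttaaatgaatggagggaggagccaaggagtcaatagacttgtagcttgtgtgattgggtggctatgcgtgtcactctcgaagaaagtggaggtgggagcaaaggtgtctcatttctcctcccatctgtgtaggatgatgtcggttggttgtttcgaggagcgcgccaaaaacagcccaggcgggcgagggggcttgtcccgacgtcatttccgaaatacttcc
Cox8b, chr7:140900447-140900696, reverse strand: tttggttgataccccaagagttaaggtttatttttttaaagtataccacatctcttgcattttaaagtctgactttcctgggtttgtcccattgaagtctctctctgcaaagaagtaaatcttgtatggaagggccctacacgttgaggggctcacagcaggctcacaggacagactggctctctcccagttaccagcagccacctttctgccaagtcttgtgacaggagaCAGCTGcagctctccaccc
The sequence before Cox6a1 held 2 NRF1-type matches and 1 ETS-type match, that before Cox8b held 1 E-box 14 to 19 bases from the start, and that before Cox8a held none of the 3. Among the 16 genes, NRF1-type matches were found for 3 (Cox6a1, Sdha, Sdhd), beside 3.74% of 32851 promoters, ETS-type matches for 3 (Cox6a1, Cox6b1, Sdhd), beside 6.91%, and the E-box for 1 (Cox8b), beside 13%. A match is a description of the sequence, not a site shown to be bound.

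Of the mitochondrial protein genes, 12 of 13 had a log2 fold change below 0 in psoas against EDL and 0 were called, while DESeq2 called 1 of them lower, mt-Co1. For mt-Co1 the normalized counts were 689602, 577621, 971999.9, 573554 and 566465 in EDL replicates 1 to 5, 386512, 245044, 297099, 276754 and 494769 in psoas replicates 1 to 5 and 714297, 454507 and 599611 in soleus replicates 1 to 3. All psoas libraries lay below all EDL libraries, with -0.99 ± 0.30 (log2, SE, adjusted p = 0.033). For mt-Co2 they were 158014, 123712, 169984, 68145 and 55625 in EDL replicates 1 to 5, 85820.0, 48783, 55037, 33107 and 63809 in psoas replicates 1 to 5 and 144394, 96419.6 and 54027 in soleus replicates 1 to 3. In this gene the EDL and psoas ranges overlapped, EDL replicates 4 and 5 being lowest of their muscle, and the test gave -1.01 ± 0.38 (log2, SE, adjusted p = 0.0794). For mt-Co3 the values were 307277, 292923, 411546, 322553 and 298885 in EDL replicates 1 to 5, 160924, 102565, 149002, 122592 and 309578 in psoas replicates 1 to 5 and 304750.5, 179037 and 274268 in soleus replicates 1 to 3. Psoas replicate 5 alone reached the EDL range, and the log2 fold change was -0.95 ± 0.32 (log2, SE, adjusted p = 0.0503). Without that library it was -1.29 with an adjusted p of 0.0095, and mt-Co3 was then called.

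Of the mitochondrial mRNAs outside complex IV, mt-Atp6, a subunit of the ATP synthase, was counted most. Its normalized counts were 46063, 73897, 106826, 108012 and 71186 in EDL replicates 1 to 5, 68591, 27386, 33307, 34041 and 76448 in psoas replicates 1 to 5 and 75456, 43418 and 29401 in soleus replicates 1 to 3, with overlapping ranges and -0.76 ± 0.37 (log2, SE, adjusted p = 0.163) in psoas against EDL. It shares 43 bases with mt-Atp8, and mt-Nd4l shares 7 with mt-Nd4, so counts of these neighbours cannot be fully told apart. The 7 complex I genes spanned log2 fold changes from -1.0 to 0.048. The 2 at the upper end were mt-Nd5 (-0.026, adjusted p = 0.97) and mt-Nd6 (0.048, adjusted p = 0.945), which lie next to each other on opposite strands and overlap by 14 bases. The log2 ratio of mt-Co1 to mt-Nd5 per length was 5.88 ± 0.68 in EDL and 4.80 ± 0.24 in psoas, with the lowest EDL library (5.16) above the highest of psoas (5.06). The soleus libraries spread from 4.80 to 6.75 across both. For this ratio mt-Nd5 was taken with its fold change already seen, and mt-Co1 was the 1 mitochondrial mRNA gene without overlap. The separation of EDL from psoas in the ratio is thus not a further result. The rRNA genes mt-Rnr1 and mt-Rnr2 gave log2 fold changes of -0.98 ± 0.41 (log2, SE, adjusted p = 0.113) and -0.92 ± 0.37 (log2, SE, adjusted p = 0.0952).

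**Figure D4:**
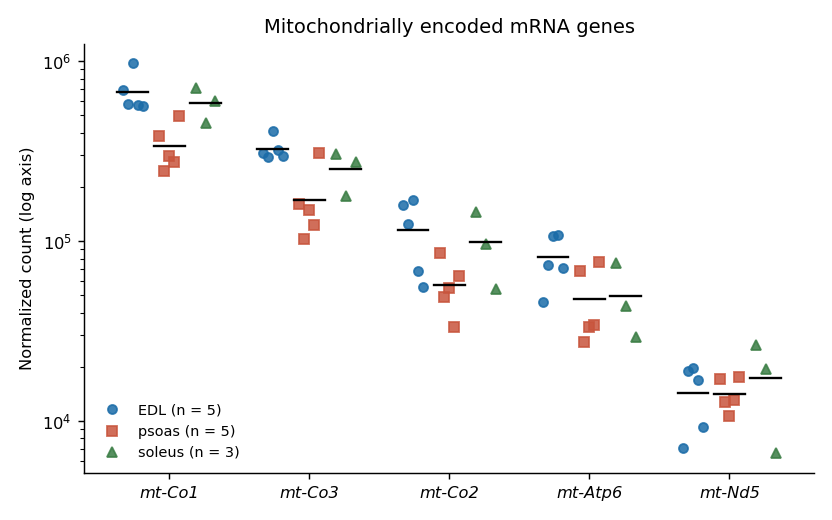
Normalized counts (log axis) of the 3 core complex IV genes, mt-Atp6 and mt-Nd5, each symbol 1 library and each black line the mean of a muscle. The psoas libraries lie below EDL in mt-Co1, overlap it in mt-Co2, mt-Co3 and mt-Atp6, and have nearly the EDL mean in mt-Nd5.

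The largest differences of mitochondrially encoded genes were those of tRNA genes. The 3 genes for asparagine, cysteine and tyrosine, are neighbours on the reverse strand between mt-Nd2 and mt-Co1. Their sequences are shown because mt-Tn and mt-Tc were called, and because their length and spacing bear on what was counted. They are taken from the GENCODE M21 transcripts (GRCm38), and the capitals mark the anticodon, the bases that read the codon.
mt-Tn, chrM:5089-5159, reverse strand: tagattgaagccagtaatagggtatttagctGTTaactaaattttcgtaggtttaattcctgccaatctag
mt-Tc, chrM:5192-5257, reverse strand: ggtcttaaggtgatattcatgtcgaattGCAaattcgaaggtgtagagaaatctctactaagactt
mt-Ty, chrM:5260-5326, reverse strand: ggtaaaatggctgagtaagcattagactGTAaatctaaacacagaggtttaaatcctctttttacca
With 66 to 71 bases each, these genes are shorter than a read of 75 bases, the gap between mt-Tn and mt-Tc is 32 bases, and that between mt-Tc and mt-Ty 2. A read on one of them can thus reach into a neighbour or come from an uncut precursor. The strand setting of the counting is not given in the sources used here, so RNA from the opposite strand cannot be told apart either, and counts on these genes are not counts of mature tRNA.

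For mt-Tc the normalized counts were 739.6, 869.6, 1722, 472 and 546 in EDL replicates 1 to 5, 218, 242, 355, 133 and 276 in psoas replicates 1 to 5 and 1925, 1207 and 904 in soleus replicates 1 to 3. Each psoas library was below each EDL library, and each EDL library except replicate 3 was below each soleus library. The log2 fold change was -1.83 ± 0.37 (log2, SE, adjusted p = 0.00547) in psoas against EDL, 2.47 ± 0.40 (log2, SE, adjusted p = 0.0139) in soleus against psoas and 0.63 ± 0.40 (log2, SE, adjusted p = 0.511) in soleus against EDL. For mt-Tn the counts were 227, 175, 275, 103 and 137 in EDL replicates 1 to 5, 84.3, 58.2, 71.4, 49.5 and 84.5 in psoas replicates 1 to 5 and 462, 255 and 236 in soleus replicates 1 to 3. The psoas range again stood clear below both others, with -1.39 ± 0.29 (log2, SE, adjusted p = 0.00656) against EDL and, in soleus against psoas, 2.20 ± 0.32 (log2, SE, adjusted p = 0.00904). The latter was the only member called in that comparison, where 0.0703% of all genes were called higher. Both tRNA genes had an adjusted p under 0.05 there, beside 0.434% of all genes higher at that limit. In soleus against EDL, mt-Tn gave 0.80 ± 0.32 (log2, SE, adjusted p = 0.225).

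The call of mt-Tc against EDL was lost in 4 of 22 alternative settings, in which 1 library was left out, with adjusted p-values up to 0.0161. That of mt-Tn was lost in 9 against EDL and in 14 against soleus, with adjusted p-values up to 0.0215 and 0.0621. The log2 fold changes kept their sign throughout, from 1.83 to 2.37 for mt-Tn in soleus against psoas. The next neighbour, mt-Ty, had normalized counts from 201 to 938 in EDL, 71.2 to 262 in psoas and 318 to 1048 in soleus, with -1.60 ± 0.45 (log2, SE, adjusted p = 0.0262) in psoas against EDL and 2.05 ± 0.50 (log2, SE, adjusted p = 0.096) in soleus against psoas. Its EDL and psoas ranges overlapped. In log2 CPM, the mean of these 3 tRNA genes minus that of the 13 mitochondrial mRNA genes was -6.39 ± 0.67 in EDL, -7.17 ± 0.48 in psoas and -5.34 ± 0.15 in soleus. All soleus libraries were above all EDL and psoas libraries in this difference, and EDL overlapped psoas. The 3 genes were taken with their values in these libraries seen, so the separation from psoas follows in part from that choice. The other reverse-strand tRNA genes tested gave log2 fold changes in soleus against psoas of 1.17 (mt-Te), 0.42 (mt-Ts1) and 0.15 (mt-Tp).

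**Figure D5:**
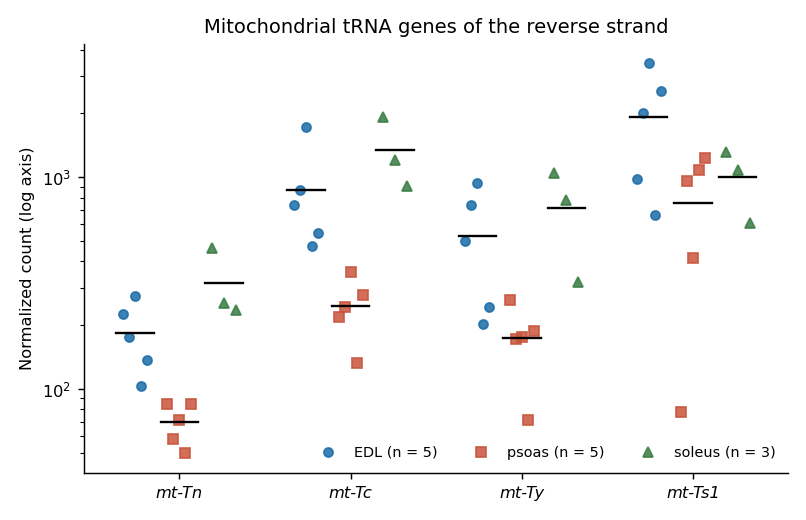
Normalized counts (log axis) of 4 tRNA genes of the reverse strand, each symbol 1 library and each black line the mean of a muscle. In mt-Tn and mt-Tc every psoas library lies below every EDL and soleus library, in mt-Ty below every soleus library only, and mt-Ts1 overlaps among the 3 muscles.

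The tRNA gene with the most counts in EDL and psoas, mt-Ts1 (serine, overlapping the end of mt-Co1 by 3 bases on the other strand), ranged from 659 to 3440.2 in EDL, 77.3 to 1233 in psoas and 609 to 1311 in soleus, and gave -1.37 ± 0.59 (log2, SE, adjusted p = 0.118) in psoas against EDL. Psoas replicate 1 held the lowest value. The other 6 tRNA genes tested (mt-Ti, mt-Tm, mt-Td, mt-Te, mt-Tt and mt-Tp) had normalized counts of at most 257 in any library and log2 fold changes in psoas against EDL from -1.78 to -0.0063, with 0 called. The reverse strand holds 8 of the 22 tRNA genes and all 8 had a value, against 6 of 14 on the forward strand.

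All 4 genes of complex II were lower in psoas than in EDL by their means, and 0 were called. Sdha, the flavoprotein that oxidizes succinate, was counted most. Its normalized counts were 8539, 12623, 15075, 8678 and 14680.2 in EDL replicates 1 to 5, 2933, 4586, 5857, 7439 and 8090.0 in psoas replicates 1 to 5 and 7538, 6768 and 6589 in soleus replicates 1 to 3. Psoas stayed below EDL in every library, and the log2 fold change was -1.05 ± 0.28 (log2, SE, adjusted p = 0.0195). Sdhb, the iron-sulfur subunit, ranged from 4971 to 9253 in EDL and 1439 to 4824 in psoas, also without overlap, with -1.17 ± 0.30 (log2, SE, adjusted p = 0.016), and was called with the replicate block (adjusted p = 0.00651). The anchors Sdhd (-0.81, adjusted p = 0.0616) and Sdhc (-0.45, adjusted p = 0.256) overlapped between the muscles. The mRNA of wholly nuclear complex II thus had a median log2 fold change of -0.93, between that of the mitochondrial mRNAs and that of nuclear complex IV.

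In *mdm* soleus against *mdm* EDL, 0 of 45 members were called, beside 0.978% of all genes in either direction. At an unadjusted p under 0.05 there were 5 such members (mt-Tn, Sdha, Cox7a1, Cox6a2 and Cox6a1, named after their values were seen), beside 15.1% of all genes, and DESeq2 called 1, Cox6a2. The median log2 fold change was -0.28 for mitochondrial mRNA, -0.51 for nuclear complex IV and -0.52 for complex II, beside -0.029 for all genes. With total counts the median of all genes rose to 0.33 and that of mitochondrial mRNA turned to 0.11, still below the shift. The 1 member with an adjusted p under 0.05, beside 3.43% of all genes, was Cox6a1, with 0.99 ± 0.25 (log2, SE, adjusted p = 0.0397), and all 3 soleus libraries were above all 5 of EDL. Its muscle counterpart Cox6a2 had -1.0 ± 0.28 (log2, SE, adjusted p = 0.0699) and Cox7a1 -1.31 ± 0.52 (log2, SE, adjusted p = 0.222), both without overlap of the 2 muscles, whereas Cox8a gave 0.65 ± 0.33 (log2, SE, adjusted p = 0.392). Of the 45 members, 3 were lower and 1 higher without overlap, beside 977 and 909 of all 17069 genes. For Sdha the value was -0.77 ± 0.33 (log2, SE, adjusted p = 0.267), and for mt-Co1 -0.19 ± 0.34 (log2, SE, adjusted p = 0.855).

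In soleus against psoas, 44 of 45 members had a log2 fold change above 0, with medians of 0.44 for mitochondrial mRNA, 0.50 for nuclear complex IV, 0.42 for complex II and 1.72 for the tRNA genes tested. In 4 members all soleus libraries were above all psoas libraries (mt-Tn, mt-Tc, mt-Ty and Cox6a2), beside 4.97% of all genes. Cox6a2 gave 0.82 ± 0.27 (log2, SE, adjusted p = 0.218), Cox8b 0.87 ± 0.40 (log2, SE, adjusted p = 0.38), Cox7a1 0.34 ± 0.49 (log2, SE, adjusted p = 0.789) and Cox6a1 0.47 ± 0.25 (log2, SE, adjusted p = 0.447). Further values were 0.80 ± 0.34 (log2, SE, adjusted p = 0.344) for mt-Co1 and 0.28 ± 0.32 (log2, SE, adjusted p = 0.728) for Sdha. The 3 comparisons share their libraries and are not independent of each other.

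The labels give each library a condition code whose meaning is not stated, and the codes T4, T5 and T6 hold both EDL and psoas. All T4 libraries are of males and all T5 libraries of females, and no sex is given for T6. Of each of these 2 muscles, T4 and T5 hold 1 library and T6 holds 2. Within these codes the median log2 difference of psoas from EDL was -1.37, -1.69 and -0.48 for the mitochondrial mRNAs. For nuclear complex IV it was -1.19, -1.28 and -0.63. Both were smallest in T6, but single libraries in T4 and T5 cannot show a difference between codes. Cox6a2 differed by -2.49, -2.05 and -1.16, and mt-Tc by -1.87, -2.28 and -1.39. Soleus shared T4 (2 soleus libraries, 1 of psoas) and T6 (1 soleus library, 2 of psoas) with psoas. There the median log2 difference of soleus from psoas over the 13 mitochondrial mRNA genes turned with the code, 1.23 in T4 and -0.76 in T6. The 1 soleus library of T6 is replicate 3. Among these genes mt-Nd5 (0.84 and -1.19) and mt-Atp6 (1.08 and -0.79) turned. The core genes mt-Co1 (1.23 and 0.70), mt-Co2 (1.29 and 0.24) and mt-Co3 (1.20 and 0.50) did not. The share of counts on the 13 genes was higher in soleus in both codes, by 3.54 points in T4 and 1.48 in T6. Nor did the difference turn for mt-Tn (2.54 and 1.84) or mt-Tc (2.66 and 2.23).

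Genes that build or serve these complexes were taken from 5 lists. Of 24 listed assembly factors of complex IV, 21 were tested and 0 were called in psoas against EDL, with a median log2 fold change of -0.45 and 8 at an unadjusted p under 0.05, beside 33.3% of all genes at that limit. Higd2a, an assembly factor, had the smallest p there (-0.81 ± 0.17, adjusted p = 0.00639). In the 4 assembly factors of complex II the median was -0.72 and 0 were called, with Sdhaf2 nearest (-0.71 ± 0.19, adjusted p = 0.0223). Cytochrome c itself, Cycs, which hands its electron to complex IV, gave -1.18 ± 0.31, adjusted p = 0.0195 and led a list of 4 with a median of -0.80 and 0 called. The 36 nuclear genes of complex I had a median of -1.03 with 10 called lower, the 9 of complex III -0.85 with 1 and the 17 of complex V -1.02 with 3. These stood against 2 of 15 in complex IV and 0 of 4 in complex II. Of all genes tested, 2.5% were called lower.

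Of the machinery that copies and transcribes the mitochondrial genome, the 16 listed genes had a median of -0.17 in psoas against EDL, with 0 called and 7 at an unadjusted p under 0.05, beside the same 33.3%. At an adjusted p under 0.05, 2 were lower and 2 higher, beside 1547 and 1546 of all 17069 genes tested. The higher ones were Polrmt, the mitochondrial RNA polymerase (0.72 ± 0.23, adjusted p = 0.0414), and Top1mt, the mitochondrial topoisomerase (0.61 ± 0.20, adjusted p = 0.0438), both named after their values were seen. Ssbp1, the single-strand binding protein of mitochondrial DNA, had the smallest p (-0.71 ± 0.16, adjusted p = 0.00936). Of 19 listed genes of mitochondrial RNA processing and stability, 17 were tested with a median of -0.20. Among them 1 was called lower, beside 2.5% of all genes. It was Slirp, a partner of the protein that stabilizes mitochondrial mRNA (-1.04 ± 0.23, adjusted p = 0.00901). In soleus 0 genes of these 5 lists were called against either muscle. The smallest p against EDL belonged to Cmc2 (-0.64 ± 0.25, adjusted p = 0.204), Sdhaf3 (-0.38 ± 0.27, adjusted p = 0.561), Cycs (-0.59 ± 0.36, adjusted p = 0.493), Top1mt (0.49 ± 0.22, adjusted p = 0.314) and Hsd17b10 (0.47 ± 0.24, adjusted p = 0.378). Against psoas it belonged to Cox19 (0.96 ± 0.32, adjusted p = 0.225), Sdhaf4 (1.03 ± 0.43, adjusted p = 0.345), Hccs (0.45 ± 0.20, adjusted p = 0.357), Ssbp1 (0.39 ± 0.18, adjusted p = 0.392) and Hsd17b10 (0.65 ± 0.24, adjusted p = 0.273).

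Markers of several cell types also differed between the muscles. The summed normalized count of 9 myofibre markers was 1430220.4 to 2715490.2 in EDL, 567851 to 1107821 in psoas and 633429 to 919293 in soleus, so that psoas and soleus lay below EDL without overlap. In soleus the markers of this list went both ways: the slow-fibre genes Myh7 and Tnnt1 had means of 147261 and 37966 against 5002 and 4830.3 in EDL, and the fast-fibre genes Myh1 and Myh4 had 33149 and 8619 against 462157 and 373361. The 7 markers of immature or regenerating fibres summed to 37509 to 68883 in EDL and 70295 to 147596 in psoas, again without overlap but in the other direction. In soleus they summed to 61493 to 182281, and there too the markers went both ways. Against EDL, 5 of the 7 had a log2 fold change above 0 and 2 below. Myh3 had means of 109785 in soleus and 22515 in EDL, and Myh8 of 6925 and 24950. Sums of 8 adipocyte markers were 9513 to 29439.8, 15660.5 to 43327 and 62108 to 88449 in the same order of muscles, those of 5 Schwann cell markers 1222 to 2428, 4044 to 28824 and 2545 to 6607, and those of 5 mesothelial markers 41.8 to 121, 255 to 1050.4 and 48.6 to 165. Of the markers of brown adipocytes, cells rich in mitochondria, 4 of 5 had a value and summed to 131 to 223 in EDL, 133 to 5893 in psoas and 229 to 279.7 in soleus, and Lhx8 had no value. The highest psoas sum was that of replicate 5 alone, the library with the outlying mt-Co3 count, and the other 4 psoas libraries had 133 to 459.8. Of these 4 markers, 3 were higher in psoas than in EDL and 1 was called higher, beside 2.43% of all genes. The psoas and EDL means were 1020 and 33.6 for Ucp1, 427 and 75 for Cidea and 6.48 and 1.46 for Elovl3. Zic1 went the other way and was called lower, with means of 4.1 and 53.5, beside 2.5% of all genes. Sums that overlapped among all 3 muscles were those of 6 macrophage markers (4649 to 15604, 4188 to 15345 and 5209 to 9451), 5 fibroblast markers (32972 to 82658, 42653 to 118269 and 54584 to 81208), 5 endothelial markers (1311 to 3924, 1722 to 2998 and 2567 to 3996) and 5 erythrocyte markers (97.6 to 577, 49.5 to 6636 and 216 to 1334), although 4 of the 5 erythrocyte markers were higher in psoas than in EDL at an adjusted p under 0.05. No marker with a value was at 3 or fewer counts in all libraries. The RNA integrity number that the study lists was lower on average for psoas than for EDL. The part of these cells and of RNA integrity in the differences of the mitochondrial genes was not tested.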

How the data were processed

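RNA of whole *mdm* muscles was sequenced (TruSeq Stranded Total RNA, paired reads of 75 bases), and the authors aligned the reads to GRCm38.p4 with TopHat2 2.1.1 and counted them per gene with GenomicAlignments. The submitters' notes also name Trimmomatic 0.32, FastQC, BWA and Picard. The overlap mode, strand setting and rRNA removal are not given in the sources used here. The deposited files hold raw counts for 17924 genes and a normalized signal, which was checked to be the count divided by 1 size factor per library (0.5023 to 2.4166). The size factors were set by the authors over more libraries than the 13 used here, and the authors had removed marginally expressed genes.

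Counts were tested with edgeR 4.0.16 (TMM scaling, quasi-likelihood test, muscle as the only term, all 13 libraries in one fit, R 4.3.3), with Benjamini-Hochberg adjustment over the 17069 genes whose normalized count reached 10 in 3 or more libraries. Calls needed an adjusted p under 0.01 and a log2 fold change beyond 1 in either direction. Levels per length (RPKM) used the exon bases of GENCODE M21. The study's fit held the sequencing run as a term, which the labels do not name, so their condition code was tried in its place. Alternatives were other scalings, no filter, DESeq2 1.42.0, limma 3.58.1 on log2 of the signal plus 1, blocks, only the 2 muscles compared, a looser limit and each library left out. The labels do not say which libraries came from one animal, although the study used fewer mice than libraries. The main fit treated libraries as independent, so its p-values measure the spread between these libraries. No pair of libraries of 1 muscle agreed within sampling noise (lowest chi-square per degree of freedom 56.5 over 23 pairs).

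Deviations of same-numbered EDL and psoas libraries from their muscle means had correlations of 0.41, 0.37, 0.32, 0.29 and 0.37 in the order of the replicates. Each exceeded 0.1, the limit set for using the replicate number as a block. Replicates 2 to 5 of EDL and psoas match in age and condition code, and replicate 1 in neither. No correlations of differently numbered libraries are given beside these values. The values thus do not show that same-numbered libraries came from the same animal. Deviations of soleus libraries correlated by 0.11, 0.42 and -0.16 with EDL and by 0.16, 0.14 and -0.30 with psoas. The values of -0.16 and -0.30 lay below the limit. The block was still fitted over all libraries, so soleus libraries shared blocks with the EDL and psoas libraries of the same number. The block results of every comparison, psoas against EDL included, come from that fit.

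The genes and the lists were chosen with earlier results of these data known. Values per library are given for called genes, the complex IV core, the most counted other mitochondrial mRNA, the most counted gene of complex II and the pairs of forms of 1 subunit. From the further lists, called genes or else the gene with the smallest p are named, and other names were added for their place in a group.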

Additional observations from a re-analysis of the deposited data

Results flagged for a closer look

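Of 48 sets of 5 libraries examined, 3 held a library far from the other 4, where chance gives about 1 in 20. EDL replicate 3 had a normalized count of 411546 for mt-Co3, against 292923 to 322553 in the other EDL libraries. Psoas replicate 5 had 309578 for the same gene, against 102565 to 160924 in the other psoas libraries. The log2 ratio of Cox7a1 to Cox7a2 per length was 0.24 in EDL replicate 4, against 0.61 to 0.74 in the other EDL libraries.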

How the results depend on the processing

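Of the 4 members called lower in psoas than in EDL, Cox6a2 was called in all 22 alternatives. The number called was 14 with DESeq2, 10 with limma, 8 under a block on the label code, 2 with only the 2 muscles compared and 15 at an adjusted p under 0.05 with no fold limit. Lower calls over all 17069 genes moved too, from 426 to 774 with DESeq2, 493 with limma, 530 under the code block and 261 with only the 2 muscles. With 1 library left out the number of members ran from 1 to 11. It was 1 without EDL replicate 3, psoas replicate 1, psoas replicate 2 or psoas replicate 4. There 147, 200, 157 and 299 of all genes were called lower. The number of members was 2 without EDL replicate 1, EDL replicate 2 or psoas replicate 3, beside 407, 285 and 275 of all genes. It was 11 without psoas replicate 5, where 409 of all genes were called lower. With the replicate block it was 11 for psoas against EDL and 0 for soleus against psoas, where 1 was called without the block, and it stayed 0 for soleus against EDL. In soleus against EDL, 1 was called higher with total counts (Cox6a1), beside 237 of all genes, and 1 lower with DESeq2 (Cox6a2), beside 363. At an adjusted p under 0.05 the number was 1, beside 3.43% of all genes. With any library left out, 0 were called. In soleus against psoas the number was 2 with total counts and 3 with DESeq2, where 12 and 95 of all genes were called higher. At an adjusted p under 0.05 it was 2, beside 74 of all genes higher. The number was 0 with the label code block and 0 with only the 2 muscles compared. It ran from 0 to 1 with 1 library left out, being 0 without EDL replicate 1, EDL replicate 2, any psoas or any soleus library.

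The mitochondrial mRNA share of EDL was 8.34% with the 10 most counted nuclear genes left out of the total. Against only the nuclear subunits above their median, the complex IV difference was 5.47 in EDL, 5.56 in psoas and 5.63 in soleus, since the lower subunits no longer entered the mean. The psoas mean then lay above that of EDL. With 1 library left out, the share ran from 6.41 to 7.01% in EDL, 4.65 to 5.32% in psoas and 6.44 to 8.03% in soleus, and the difference from 6.89 to 7.15, 6.65 to 7.08 and 6.79 to 7.33.

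Directions turned for Cox4i2 in psoas against EDL, with a log2 fold change of -0.0011 with RLE size factors and -0.25 to 0.59 with 1 library left out (below 0 without EDL replicates 1, 3 or 5 or psoas replicates 2 or 4), for Cox8a in the same comparison (-0.057 to 0.35, below 0 without psoas replicate 5) and for mt-Co1 in soleus against EDL (0.20 with total counts). Apart from constructions that drop samples or subunits, the cause was not tested. Counts of Cox4i2, at 0 to 20 per library, and 3 soleus libraries limit what could be detected.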
